A study of Oryza sativa Japonica Group with 12 samples.

Results

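Unstressed seedlings of the rice line raf-b2/3 were compared with unstressed wild-type seedlings (WT, the Nipponbare background that the labels call NIP). The members of the comparison were all loci with an FPKM of 1 or more in at least 3 of the 6 control libraries. FPKM counts fragments scaled to the length of a locus and to the depth of its library. Of 29358 loci in the deposited table, 21114 (71.9%) met this rule. At its edge, LOC_Os04g41238 just entered, with 1.211, 1.258 and 1.0001 FPKM in WT and 0.778, 0.672 and 0.560 in raf-b2/3. LOC_Os04g20070 just missed it, with 1.243, 0.851 and 0.608 FPKM in WT and 1.149, 0.408 and 0.9996 in raf-b2/3.

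Both groups were whole seedlings of Oryza sativa, Japonica group, 5 days old, without mannitol, and each had 3 libraries. The genotype label of raf-b2/3 speaks of a knockdown of B2 and B3 RAF kinases, while the protocols speak of a mutant. The labels name neither the affected loci nor the alleles, and give 1 line name. Other seedlings of both genotypes spent 6 hours in 800 mM mannitol, and their 6 libraries are used below as libraries that played no part in the control comparison beyond a shared estimate of spread. Nothing in the labels states that replicate libraries stem from independently grown material. A p-value therefore reflects how far the libraries at hand scatter, and that scatter may be technical.

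Raf-like kinases of the B2 and B3 groups are protein kinases that phosphorylate and activate SnRK2 kinases. Active SnRK2 kinases in turn phosphorylate bZIP transcription factors of the ABF/AREB type, which switch on genes of the abscisic acid (ABA) and dehydration response. Clade A protein phosphatases (PP2C) hold SnRK2 kinases inactive until ABA, bound to its receptors, inhibits the phosphatases. In an unstressed seedling this pathway is largely at rest. The control comparison therefore addresses how far the expression of such genes, and of the rest of the genome, differed before any stress was given.

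Between 38080073 and 39792489 fragments per control library lay behind the values, and each of these libraries held 20531 to 21178 loci at 1 FPKM or above. WT control library 2 stood apart. Pearson's r of its log2 values with the other WT control libraries was 0.979 and 0.982, against 0.990 between WT control 1 and 3 and 0.988 between any pair of raf-b2/3 control libraries. The summed level of 4 root markers, the silicon transporters LSI1 and LSI2, the iron transporter YSL15 and the phosphate exporter PHO1-2, was 84.5 FPKM in WT control 2, 358 and 383 in WT control 1 and 3, and 421, 404 and 481 in raf-b2/3. The log2 difference of this sum was 0.94 (exact two-sided permutation test p = 0.1, the smallest that 3 against 3 libraries allow), and 0.23 (exact p = 0.2) without WT control 2. The sum of 3 shoot markers (LHCB2, RCA and CAO1) was 5234 to 6299 FPKM in WT and 5917 to 6681 in raf-b2/3, a log2 difference of 0.14 (exact permutation p = 0.2). Taken singly, the 3 differed in sign, with log2 differences of 0.28 for RCA, -0.13 for LHCB2 and -0.03 for CAO1. The seed storage genes GLUA1 and GLUA2 together stood at 2.55 to 2.69 FPKM in WT and 2.55 to 2.92 in raf-b2/3 (log2 difference 0.04, exact permutation p = 0.8). The seedlings thus expressed shoot and root markers at high levels and seed markers at a low level. In whole seedlings, fewer cells of a type and less RNA per cell cannot be told apart.

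Few loci were called different between the genotypes without stress, and most differences were small. Of the 21114 loci, 88 were called higher in raf-b2/3 (0.417% of those tested) and 41 lower (0.194%), where called means a Benjamini-Hochberg adjusted p under 0.05 by limma-trend and a log2 difference of at least 1 in size. At the adjusted p alone, 279 loci were higher (1.32%) and 133 lower (0.63%), and 3213 loci had an unadjusted p under 0.05. The log2 difference was under 0.25 in size for 83.4% of the tested loci, under 0.5 for 95.2% and under 1 for 99.0%, and its median was 0.013. All 129 called loci had raf-b2/3 libraries that did not overlap the WT libraries, which largely follows from calling them on these same libraries. Over all tested loci 21.5% were so separated, 13.3% with raf-b2/3 above and 8.25% with it below. The called loci were mostly of modest abundance. In the genotype with the higher level, the median was 6.35 FPKM for loci called higher and 6.77 FPKM for loci called lower, and 31 and 16 loci exceeded 10 FPKM.

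**Figure D1:**
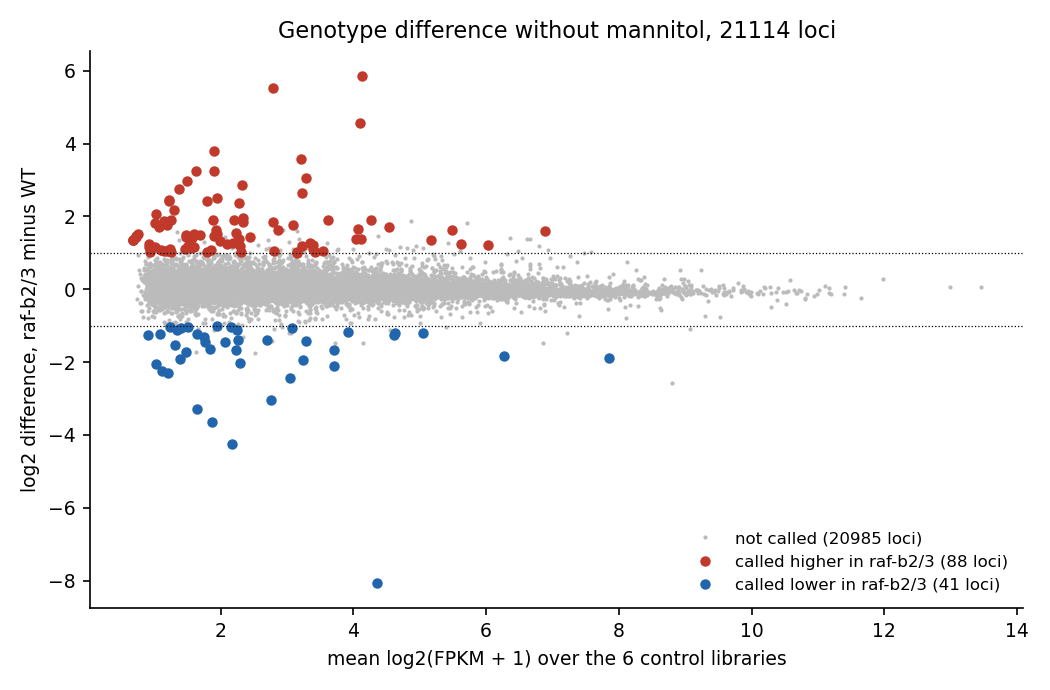
Log2 difference (raf-b2/3 minus WT, y axis) against the mean log2(FPKM + 1) over the 6 control libraries (x axis), 1 point per locus; dotted lines mark a log2 difference of 1 in size. The 88 loci called higher (red) and 41 called lower (blue) stand out of 21114, and the lowest point, at -8.05, is LOC_Os01g74650.

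Without WT control 2, 66 loci were called higher and 46 lower, and 103 of the 129 calls remained (65 higher and 38 lower). WT control 2 was the lowest WT library at 41 of the 88 loci called higher and at 15 of the 41 called lower, against 35.1% of all tested loci. The part of the root marker difference in these calls was not tested. Without raf-b2/3 control 2 or 3, the loci past the adjusted p alone fell from 412 to 194 or 202, and without WT control 2 to 250. Over all 14 alternative settings run, 73 calls (46 higher and 27 lower) were made every time.

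Except for 2 of them, the called loci carry no gene name here, because the deposited table gives locus numbers and the reference gene table does not hold these numbers. They are therefore described by locus number, chromosome and level. Apart from the 2 highest and the 2 lowest loci, those given by number were chosen after their values had been seen.

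LOC_Os01g35330, on chromosome 1, had the largest log2 difference among the loci called higher. Its FPKM was 137, 135 and 125 in the raf-b2/3 libraries and 1.03, 1.46 and 1.46 in the WT libraries. The log2 difference was 5.85 (SE 0.13, 95% interval 5.57 to 6.14, limma adjusted p 6.3e-11). In the mannitol libraries the locus stood at 147, 174 and 114 FPKM in raf-b2/3 and at 0.646, 0.479 and 0.618 in WT, so all raf-b2/3 libraries lay far above all WT libraries in both conditions. LOC_Os03g02470, on chromosome 3, came second. It had 51.9, 46.5 and 40.7 FPKM in raf-b2/3, from 3276, 3070 and 2616 fragments. In WT it had 1, 1 and 2 fragments (0.0158, 0.0152 and 0.0309 FPKM). Its log2 difference was 5.53 (SE 0.11, limma adjusted p 3.1e-11), a value that the added 1 FPKM holds down because the WT level lies far below it.

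The strongest loss was a block of neighbours. The 5 loci called lower with consecutive places on chromosome 1, LOC_Os01g74610, LOC_Os01g74640, LOC_Os01g74650, LOC_Os01g74660 and LOC_Os01g74670, are the last 5 chromosome 1 loci of the table in number order. LOC_Os01g74650 was an abundant transcript in WT, with 344, 319 and 339 FPKM, and had 0.700, 0.0558 and 0.126 FPKM in raf-b2/3. Its log2 difference was -8.05 (SE 0.93, 95% interval -10.08 to -6.02, limma adjusted p 6.0e-04), the lowest of all tested loci. LOC_Os01g74640 had 17.1 to 21.0 FPKM in the WT libraries and 0.0378, 0.0241 and 0.0248 in raf-b2/3 (log2 difference -4.25, SE 0.33, limma adjusted p 1.8e-05). LOC_Os01g74610 had 12.1, 11.6 and 12.4 FPKM in WT and 0.0514, 0.0328 and 0.0168 in raf-b2/3 (log2 difference -3.65, SE 0.38, limma adjusted p 2.5e-04). The SEs of these loci rest on a spread over all 12 libraries, among them raf-b2/3 mannitol library 3, described below. On the 6 control libraries alone the limma adjusted p was 1.1e-06, 1.7e-06 and 1.7e-06, in the order given. Without raf-b2/3 mannitol library 3 it was 8.9e-11, 2.3e-10 and 1.8e-10.

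The other two loci of the block had no fragment in any raf-b2/3 control library. LOC_Os01g74660 had 380, 482 and 421 fragments in WT (7.97, 9.75 and 8.65 FPKM) and was at least 142-fold lower in raf-b2/3, against a floor of 3 fragments per library. LOC_Os01g74670 had 66, 68 and 68 fragments in WT (3.71, 3.69 and 3.75 FPKM) and was at least 22.4-fold lower. Floors cover counting error only. The 12 loci before the block, all tested, had log2 differences of -0.31 to 0.50 and 0 of them passed the adjusted p by limma-trend.

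The mannitol libraries gave the same picture with 1 exception. In WT under mannitol LOC_Os01g74650 had 193, 195 and 194 FPKM, and in raf-b2/3 libraries 1 and 2 it had 0.0592 and 0.103. In raf-b2/3 mannitol library 3 it had 29.0 FPKM, from 2488 fragments, which is 14.9% of the WT mean. The other 4 loci stood in that library at 13.8% to 25.7% of the WT mannitol mean, and at 0.05 FPKM or less in raf-b2/3 mannitol 1 and 2. All 6 raf-b2/3 libraries lay below all 6 WT libraries at each of these 5 loci.

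**Figure D2:**
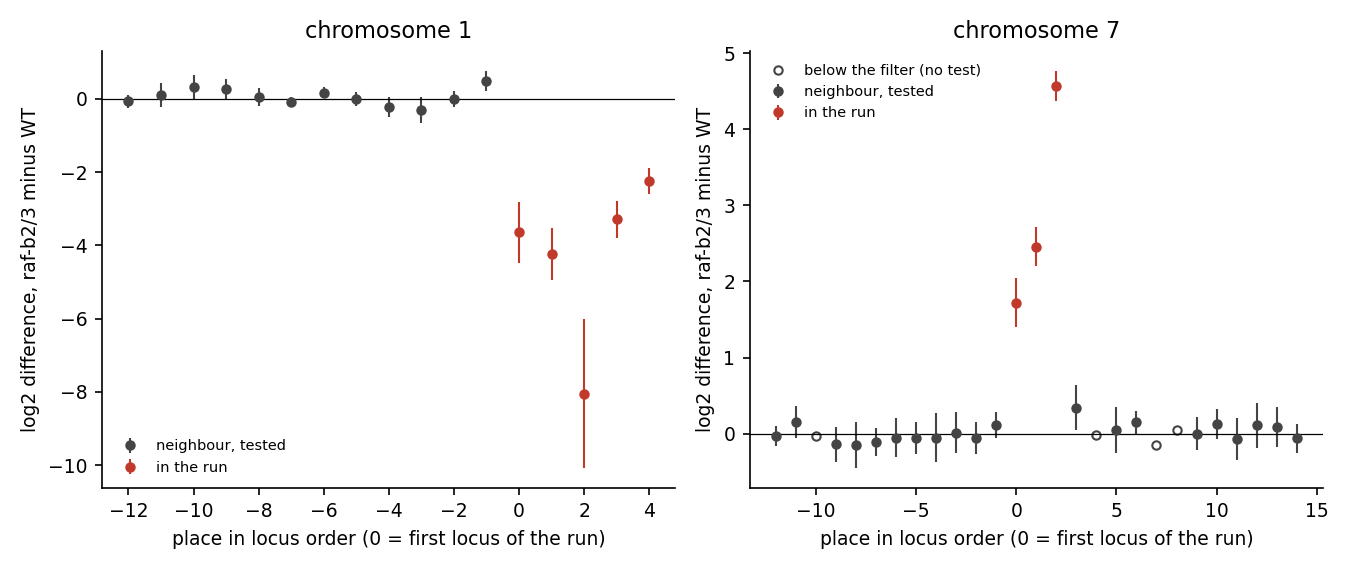
Log2 difference (raf-b2/3 minus WT, y axis) by place in number order at the end of chromosome 1 and around a run on chromosome 7. On the x axis, 0 is the first locus of the run. Bars are 95% intervals with a spread estimated over all 12 libraries, and open points are loci below the filter. The 5 loci of the chromosome 1 run lie between -8.05 and -2.24 and the 3 of the chromosome 7 run between 1.72 and 4.57, while their tested neighbours lie between -0.31 and 0.50.

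A run in the other direction lay on chromosome 7. LOC_Os07g32710 had 86.4, 75.7 and 86.8 FPKM in raf-b2/3 and 2.37, 2.32 and 2.94 in WT, a log2 difference of 4.57 (SE 0.09, limma adjusted p 3.1e-11). Its neighbour LOC_Os07g32700 had 5.22, 3.86 and 4.43 FPKM in raf-b2/3 and no fragment in any WT control library, at least 52.1-fold higher. LOC_Os07g32680 had 2.69, 2.74 and 3.04 FPKM in raf-b2/3 and 0.165, 0.0708 and 0.252 in WT (log2 difference 1.72, SE 0.15, limma adjusted p 3.9e-05). The 20 tested loci within 12 places on either side had log2 differences of -0.15 to 0.34, and 0 of them passed the adjusted p by limma-trend. Under mannitol LOC_Os07g32710 stood at 29.8, 32.3 and 30.8 FPKM in raf-b2/3 and at 2.22, 2.17 and 2.77 in WT. LOC_Os07g32700 stood at 0.478, 0.434 and 0.294 FPKM in raf-b2/3 under mannitol and at 0.0298, 0.144 and 0.0285 in WT, lower in raf-b2/3 than without mannitol.

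**Figure D3:**
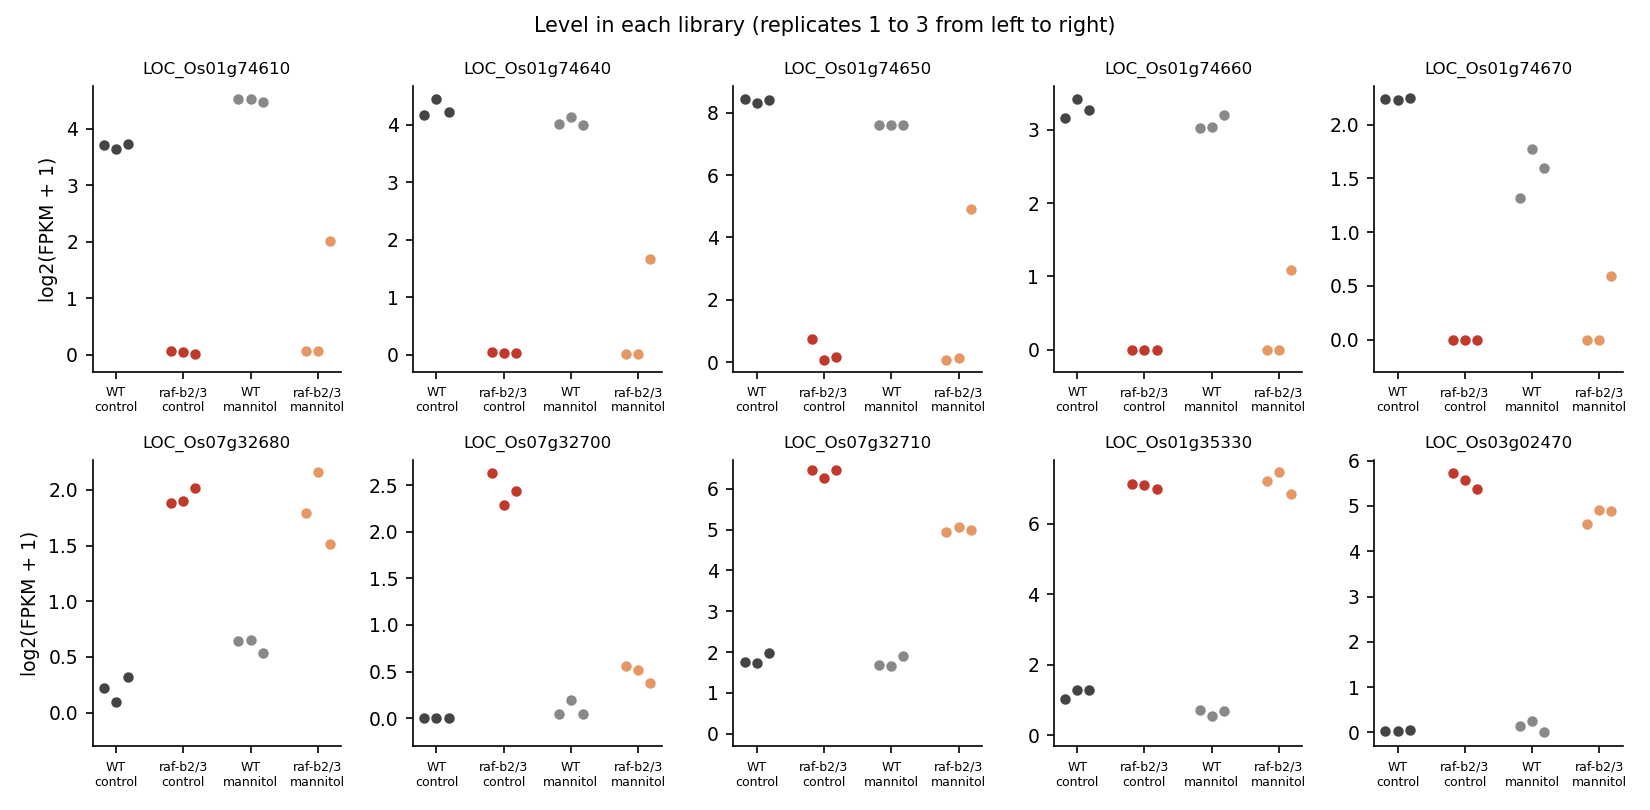
Level as log2(FPKM + 1) (y axis, scaled per panel) of 10 loci in each of the 12 libraries, grouped by genotype and condition (x axis), replicates 1 to 3 from left to right. The 5 loci of the chromosome 1 run are at or near 0 in all raf-b2/3 libraries but mannitol library 3, where LOC_Os01g74650 had 29.0 FPKM, and the 5 loci of the lower row, from the chromosome 7 run on, are higher in all raf-b2/3 libraries than in any WT library of the same condition.

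In all, 22 of the 129 called loci (17.1%) lay in 9 runs of neighbouring tested loci called in the same direction, 5 runs lower and 4 higher. Of the runs, 7 were pairs. A pair on chromosome 12, LOC_Os12g27220 and LOC_Os12g27254, fell from 18.5 ± 2.80 to 1.38 ± 0.531 FPKM and from 8.94 ± 1.30 to 1.43 ± 0.358 FPKM (SD, n = 3; log2 differences -3.05 and -2.04, limma adjusted p 2.9e-05 and 6.7e-05). A pair on chromosome 7, LOC_Os07g09760 and LOC_Os07g09770, rose from 0.165 ± 0.141 to 3.24 ± 0.218 FPKM and from no fragment in WT to 1.85 ± 0.183 FPKM (SD, n = 3). The strand setting of the authors' counting is not given in the sources used here, so fragments of overlapping neighbours may not have been told apart. By chromosome, calls made up 0.23% of the tested loci on chromosome 5 and 1.12% on chromosome 7, where 17 were higher and 1 lower. Over all tested loci 0.417% were called higher and 0.194% lower. The chromosome 7 calls include the run and the pair given above, so they are not separate places. On chromosome 5 all 4 calls were higher, and on chromosome 9 all 3, beside 68.2% of all 129 calls. Chromosome 1, with the block at its end, had 9 higher and 7 lower among 2981 tested loci.

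Some loci were detected in 1 genotype alone. With detection set at 1 FPKM or more in all 3 libraries of 1 genotype and 0.1 FPKM or less in all 3 of the other, limits chosen after the values had been seen, 14 loci were detected in raf-b2/3 alone and 6 in WT alone. All 20 were among the called loci, which largely follows from these limits and is no separate result. Of the 14, 13 had no fragment in any WT control library, and their raf-b2/3 levels were at least 12.8-fold to at least 103-fold higher than a floor of 3 fragments per library. LOC_Os02g53240 was the most abundant of the 13, with 14.2, 10.5 and 14.4 FPKM in raf-b2/3, and stood at 6.35, 7.09 and 7.66 FPKM in raf-b2/3 and at 0 in WT under mannitol. In the mannitol libraries 8 of the 14 met the same rule, and WT stayed at or below 0.1 FPKM in all 3 libraries for 11. Of the 6 detected in WT alone, 4 belong to the chromosome 1 block. The remaining ones were both on chromosome 6. LOC_Os06g11240 had 2.88, 5.21 and 4.61 FPKM in WT and at most 0.09 in raf-b2/3, and met the rule under mannitol too, with 13.2, 12.02 and 15.1 FPKM in WT. LOC_Os06g24040 had 4.28, 3.88 and 1.81 FPKM in WT and no fragment in raf-b2/3, and under mannitol WT itself had 0.26, 1.31 and 0.49 FPKM. With a limit of 0.5 FPKM the counts were 24 and 9.

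The called loci were then read in the 6 mannitol libraries, which are other libraries of the same genotypes. Of the 129 loci, 121 had the same sign there, against 60.6% of all tested loci, and 82 (55 higher and 27 lower) passed the adjusted p in the same direction by limma-trend. Of all tested loci, 7.63% passed it as higher and 6.79% as lower under mannitol. None of the 129 passed in the opposite direction. Both comparisons share an estimate of spread per locus, so passing under mannitol is not independent of the call without it. The median log2 difference of the 88 loci called higher was 1.47 without and 0.94 under mannitol, and of the 41 called lower -1.46 and -1.16. Since the loci were chosen for a large difference without mannitol, a smaller median in other libraries is a description and no sign of an effect of mannitol. Across the 129 loci Pearson's r of the pair of differences was 0.91 and Spearman's rho 0.83, and across all 21114 loci they were 0.50 and 0.33. These points share libraries and are not independent replicates, and over the 129 the choice of loci widens the range.

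**Figure D4:**
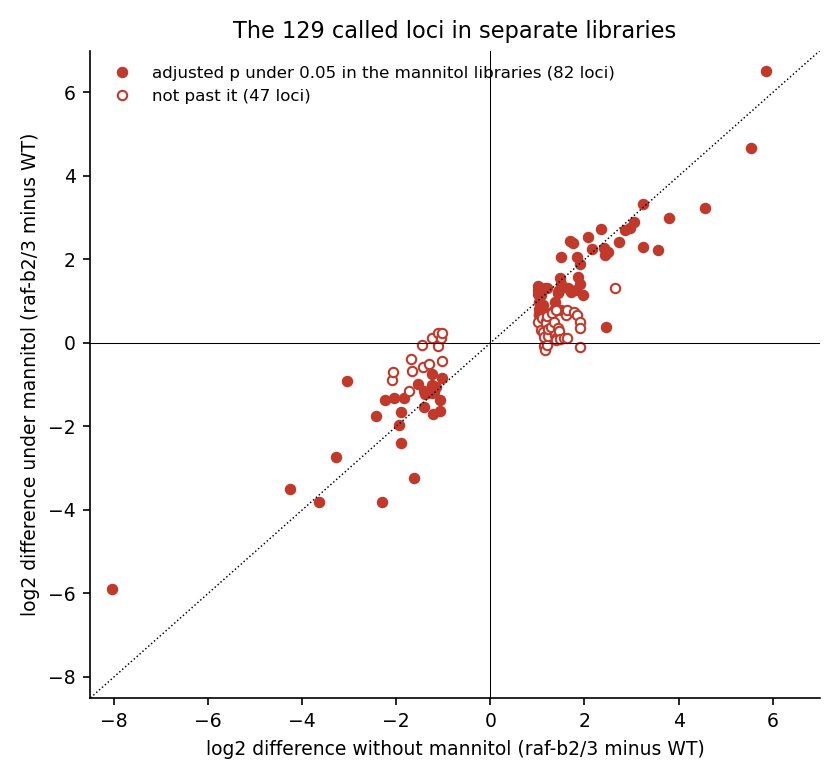
Log2 genotype difference of the 129 called loci without mannitol (x axis) and under mannitol (y axis), 1 point per locus; the dotted line marks equal differences. The 82 filled points passed the adjusted p under 0.05 in the mannitol libraries and the 47 open points did not; 8 loci lie on opposite sides of 0.

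The B2 and B3 RAF kinases themselves could not be checked, since the labels name no loci. Of 4 Raf-like kinases whose names rest on a hand-made entry alone, DSM1 (LOC_Os02g50970), a kinase known from rice for a part in drought tolerance, was called lower, with 8.87, 9.54 and 8.91 FPKM in raf-b2/3 and 22.8, 19.9 and 22.4 in WT. Its log2 difference was -1.16 (95% interval -1.32 to -1.01, limma adjusted p 3.2e-06), and it lay between -1.25 and -1.13 over the 14 alternatives, past the threshold in each. EDR1, CTR1L1 and CTR1L2 did not pass, with log2 differences of 0.25 (0.06 to 0.44), -0.09 (-0.29 to 0.11) and 0.22 (0.01 to 0.43), so they may differ by up to 0.44 in size at the outer bound of the 95% intervals.

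SnRK2 kinases, the known substrates of these RAF kinases, had small differences in level. Of the 10 genes SAPK1 to SAPK10, all tested, 0 passed the adjusted p by limma-trend. As higher, 1 had an unadjusted p under 0.05, beside 10.2% of all tested loci. Their log2 differences ran from -0.12 to 0.31 with a median of 0.09, and all 95% intervals lay between -0.40 and 0.49. SAPK1 (LOC_Os03g27280) had the largest, with 12.4, 14.2 and 13.5 FPKM in raf-b2/3 and 12.3, 10.0 and 9.69 in WT (95% interval 0.12 to 0.49, limma adjusted p 0.10). The most abundant members, SAPK4 and SAPK8, had 44.4 to 51.0 FPKM in raf-b2/3 and 37.0 to 47.9 in WT.

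Among the clade A phosphatases 2 of 7 tested members fell, beside 0.63% of all tested loci. PP2C08 (LOC_Os01g46760) had 1.45, 1.32 and 1.34 FPKM in raf-b2/3 and 3.01, 2.14 and 2.70 in WT. PP2C09 (LOC_Os01g62760) had 6.18, 5.35 and 4.91 FPKM in raf-b2/3 and 9.16, 8.34 and 8.91 in WT. All raf-b2/3 libraries lay below all WT libraries at both genes, as at 8.25% of all tested loci. Each had a log2 difference of -0.60, with limma adjusted p of 0.046 (95% interval -0.90 to -0.30) and 0.026 (-0.86 to -0.34). Both sat near the threshold. PP2C08 did not pass in 9 of 14 alternatives (among them those without WT control 1 or 3 and without each raf-b2/3 control library), and PP2C09 did not pass in 6 (among them those without each WT control library and without raf-b2/3 control 2 or 3). Both were lower under mannitol as well, by log2 differences of -1.47 and -0.59 (limma adjusted p 5.1e-05 and 0.007). PP2C06, PP2C30, PP2C50, PP2C53 and PP2C68 did not pass, with log2 differences of -0.16 to 0.12. PP2C49 and PP2C51 were below the filter. PP2C51 had 0.0526, 0.269 and 0.224 FPKM in raf-b2/3 and 0.524, 0.438 and 0.411 in WT. The median of the 7 was -0.01, beside 0.013 over all loci.

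LEA and dehydrin genes encode protective proteins that accumulate in drying tissue, and are classical ABA targets. None of the 7 tested members with a checked name passed the adjusted p by limma-trend, while 4 had an unadjusted p under 0.05 as lower and 1 as higher (5.05% and 10.2% of all tested loci), and their median log2 difference was -0.89. An entry of the same list whose name the reference did not hold, LOC_Os01g50910, was called lower, with 1.15, 0.833 and 1.16 FPKM in raf-b2/3 and 5.56, 9.15 and 2.80 in WT, with no overlap. Its log2 difference was -1.63 (95% interval -2.29 to -0.97, limma adjusted p 0.017), and -3.23 under mannitol. It was not called in 4 of 14 alternatives, among them those without raf-b2/3 control 2 or 3 (limma adjusted p 0.074 and 0.056). RAB16B (LOC_Os11g26780) had 0.482, 1.02 and 0.623 FPKM in raf-b2/3 and 7.79, 7.72 and 1.34 in WT (log2 difference -1.73, 95% interval -2.71 to -0.76, limma adjusted p 0.079). RAB16A (LOC_Os11g26790) had 8.42, 5.50 and 7.22 FPKM in raf-b2/3 and 35.4, 25.8 and 10.0 in WT (-1.47, -2.33 to -0.61, limma adjusted p 0.09). WT control 3 was the lowest WT library at both, so leaving it out enlarged the log2 differences, to -2.37 and -1.97 (limma adjusted p 0.002 and 0.01). They passed in that 1 of 14 alternatives only. In the other 13 the limma adjusted p was 0.051 to 0.25 for RAB16B and 0.067 to 0.27 for RAB16A. LEA3-2 (LOC_Os03g20680) had 0.654, 0.512 and 0.720 FPKM in raf-b2/3 and 2.43, 1.998 and 1.64 in WT (-0.89, limma adjusted p 0.13), and passed in 4 of 14 alternatives.

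The other members varied in sign. RAB16C had a log2 difference of -1.12 (limma adjusted p 0.24), with an unadjusted p under 0.05 and overlapping libraries, and DIP1 and LEA3-1 had 0.01 and 0.34. RAB16D (LOC_Os11g26750) had 1.35, 1.35 and 2.22 FPKM in raf-b2/3 and 0.715, 0.344 and 1.29 in WT, a log2 difference of 0.58 (limma adjusted p 0.30). EMP1 was below the filter. Fragments of RAB16A to RAB16D, similar neighbours on chromosome 11, could have been shared between copies by the authors' counting.

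In ABA metabolism 0 of 4 tested members passed the adjusted p by limma-trend. As lower, 2 had an unadjusted p under 0.05, beside 5.05% of all tested loci. ABA8OX2 and ABA8OX3, which encode ABA 8'-hydroxylases that break ABA down, had log2 differences of -0.44 and -0.65 (limma adjusted p 0.13 and 0.14). ABA8OX2 had 2.95, 2.62 and 2.18 FPKM in raf-b2/3 and 4.46, 3.71 and 3.44 in WT. ABA8OX3 had 1.11, 0.480 and 1.20 against 2.57, 1.64 and 1.83. Neither overlapped, with raf-b2/3 below, as at 8.25% of all tested loci. ABA8OX1 and the zeaxanthin epoxidase gene ABA1 had log2 differences of -0.03 each. The ABA synthesis gene NCED3 was below the filter. Of the ABF/AREB factors, BZIP23 and TRAB1 did not pass, with log2 differences of -0.07 and -0.16. No entry of the ABA receptor list had a usable name in the reference, so none is described as a receptor. Of its loci, LOC_Os03g18600 passed as higher, with 41.3, 50.7 and 44.8 FPKM in raf-b2/3 and 26.0, 22.0 and 27.15 in WT (log2 difference 0.84, limma adjusted p 0.0053, and 1.14 under mannitol). It passed in all 14 alternatives, with log2 differences of 0.75 to 0.91.

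**Figure D5:**
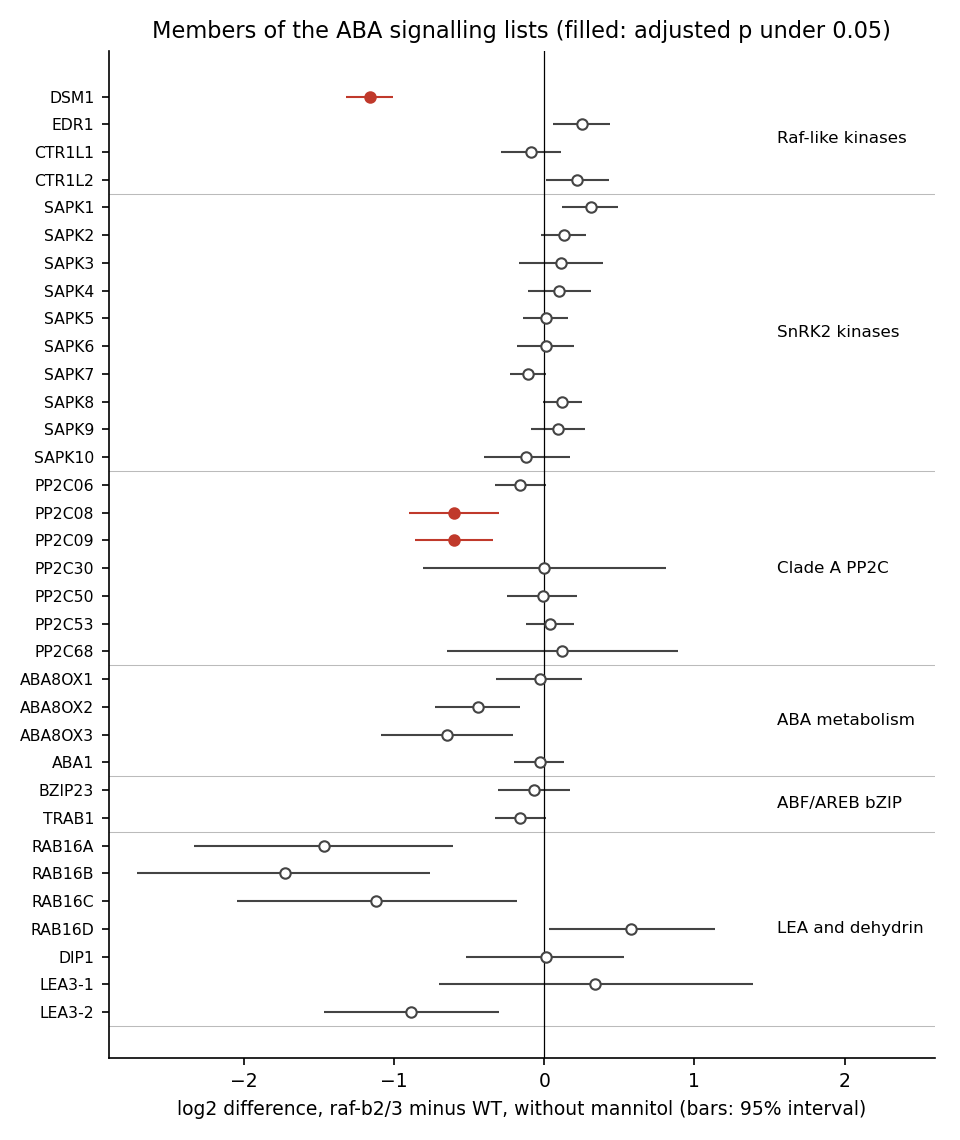
Log2 difference without mannitol (raf-b2/3 minus WT, x axis) of each tested named member of 6 lists of the ABA pathway, with 95% intervals; filled red points passed an adjusted p under 0.05. DSM1 at -1.16 and PP2C08 and PP2C09 at -0.60 are the filled points, and the widest intervals belong to LEA3-1, RAB16B, RAB16C and RAB16A.

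Named genes outside the ABA pathway rarely passed. Of 282 such tested loci 5 passed the adjusted p by limma-trend, 3 higher and 2 lower (1.77%). With the ABA pathway lists it was 8 of 316 over 55 lists (2.53%), beside 1.95% of all tested loci. Both shares are near that of all loci and say nothing particular about the named genes. Of 136 further tested entries without a usable name 3 passed (2.21%), LOC_Os01g50910, LOC_Os03g18600 and LOC_Os05g27730. The last of these, an entry of the WRKY list, was higher by 0.58 on the log2 scale (limma adjusted p 0.017). It did not pass in 3 of 14 alternatives, those without WT control 2 or 3 and the fit on the 6 control libraries alone. The 5 were a potassium and sodium transporter, an aquaporin, a pair of ethylene genes and an expansin.

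HKT1-3 (LOC_Os02g07830), a member of the HKT family of sodium and potassium transporters, had 1.02, 0.681 and 1.21 FPKM in raf-b2/3 and 2.70, 2.14 and 2.59 in WT, with no overlap. Its log2 difference was -0.83 (95% interval -1.10 to -0.55, limma adjusted p 0.0052), and it passed in 13 of 14 alternatives, the exception being the fit on the 6 control libraries (0.053). PIP1-3 (LOC_Os02g57720), a plasma membrane aquaporin, had 43.1, 32.3 and 27.4 FPKM in raf-b2/3 and 50.4, 50.6 and 62.1 in WT (-0.67, limma adjusted p 0.049), and did not pass in 10 of 14 alternatives, among them those without each WT control library, raf-b2/3 control 2 or 3, or raf-b2/3 mannitol 3. The other 9 tested plasma membrane aquaporins did not pass, and the list had a median of -0.08.

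EXPB5 (LOC_Os04g46650), a beta-expansin of the family of wall-loosening proteins, was the other called locus with a name. It had 2.03, 2.43 and 2.88 FPKM in raf-b2/3 and 0.942, 0.221 and 0.967 in WT, lowest in WT control 2. The log2 difference was 1.04 (95% interval 0.63 to 1.44, limma adjusted p 0.014) and 0.81 (0.023) without WT control 2. It passed in 10 of 14 alternatives, and not without raf-b2/3 control 2 or 3. The other 13 expansins did not pass, and the list had a median of 0.19. In ethylene signalling, the receptor gene ETR2 (LOC_Os04g08740) had 13.5, 16.2 and 15.95 FPKM in raf-b2/3 and 11.8, 9.88 and 11.3 in WT (0.44, limma adjusted p 0.027), and the transcription factor gene EIL1 (LOC_Os03g20790) had 22.6, 26.3 and 24.7 against 21.0, 19.3 and 19.2 (0.29, limma adjusted p 0.048). ETR2 did not pass in 5 of 14 alternatives and EIL1 in 11, among them for both the fits without WT control 2 or 3 and without raf-b2/3 control 2 or 3. EIL1 did not pass without raf-b2/3 mannitol 3 either.

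The medians of the silicon transporter, nitrogen and iron uptake lists were lower without WT control 2. The nitrogen and iron uptake lists also hold genes of enzymes. Other lists moved as well, some down, such as phenylpropanoid (0.15 to -0.05) and WRKY (0.31 to 0.16). Some moved up, such as DNA replication (-0.02 to 0.05) and heat shock proteins (0.12 to 0.15). Of 3 silicon transporters 0 passed, with a median log2 difference of 0.96, and 0.19 without WT control 2. LSI1 (LOC_Os02g51110) had 264, 258 and 294 FPKM in raf-b2/3 and 200, 53.3 and 216 in WT, and its log2 difference went from 1.03 to 0.38 without WT control 2. For the 8 tested nitrogen genes the median went from 0.28 to 0.15, and for the 10 iron uptake genes from 0.14 to -0.28.

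In the other lists no named member passed the adjusted p. Of 14 heat shock factors the median was 0.03, of 11 heat shock proteins 0.12, of 11 antioxidant enzymes -0.06, of 11 Aux/IAA repressors of auxin response 0.15 (5 with an unadjusted p under 0.05 as higher and 1 as lower, beside 10.2% and 5.05% of all tested loci), of 7 JAZ repressors 0.13 and of 6 type-A response regulators 0.01, each as a log2 difference. The 7 DNA replication genes lay between -0.09 and 0.01 and the 8 cell cycle genes between -0.05 and 0.14. The 10 chlorophyll synthesis genes lay between -0.26 and 0.16, the 9 cellulose synthases between -0.21 and -0.03 and the 7 circadian clock genes between -0.19 and 0.31. The widest range was that of 4 alpha-amylases, -1.48 to 1.37. In 49 of the 55 lists with a tested named member none of these passed.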

How the data were processed

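The authors deposited FPKM values of 12 libraries (4 groups of 3) for 29358 loci, from strand-specific paired-end libraries per the labels' protocols. Trimmomatic, DESeq2, edgeR and the build IRGSP-1.0 are named, per the submitters' processing notes. Which aligner, annotation and strand setting were used is not given in the sources used here. A log2 fold change and a p-value per locus for the mannitol response, which the authors also deposited, were left aside. With a tolerance of 0.01 fragment, whole fragments were recovered from the deposited FPKM for all 29358 loci.

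Differences were fitted by limma-trend (limma 3.58.1, R 4.3.3). The response was log2(FPKM + 1), and the 12 libraries gave a mean for each of the 4 groups (12 degrees of freedom in total). Benjamini-Hochberg adjustment ran over 21114 loci. The log2 scale with 1 added understates differences of loci at low level. The fit and the recovery were tested on simulated data. At the adjusted p alone, without the limit on size, 9.4% of the loci that passed were false, above the nominal level. Small changes were often missed: of simulated log2 changes of 0.5, 36% were recovered, and of changes of 1, 92%. Calls near the threshold and members that did not pass are to be read with these limits. The alternatives were another pseudocount (0.1), no filter, other scalings, the 6 control libraries alone, a replicate block, limma-voom on recovered fragments and each control library left out. Leaving out raf-b2/3 mannitol 3 and the 0.5 FPKM limit were chosen after seeing the data.

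Of 523 hand-made pairs of a name and a locus in 56 lists, 351 matched the reference gene table (assembly ASM3414082v1) by name, chromosome and order within 350 kb. Only these and the 4 Raf-like kinases were named, and entries without a usable name are given by number. Named genes were all members of the ABA pathway lists (by value or range), members of other lists past the adjusted p, and the 2 highest and 2 lowest called loci without a name. ABA metabolism genes and LSI1 were named after their values had been seen. Members and lists were chosen with earlier results of these data known. Figures and tables used Python.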

Additional observations from a re-analysis of the deposited data

Results flagged for a closer look

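In raf-b2/3 mannitol library 3, a library outside the control comparison, the 5 neighbouring loci at the end of chromosome 1 gave a signal above that of every raf-b2/3 control library. LOC_Os01g74610 stood at 3.03 FPKM against at most 0.0514 in the raf-b2/3 control libraries. LOC_Os01g74640 stood at 2.16 against 0.0378, LOC_Os01g74650 at 29.0 against 0.700, LOC_Os01g74660 at 1.14 against 0, and LOC_Os01g74670 at 0.508 (9 fragments) against 0. Of the 2 loci on chromosome 6 that were detected in WT alone, LOC_Os06g11240 had 0 FPKM in that library, beside a WT mannitol mean of 13.4. LOC_Os06g24040 had 0 as well, but its WT mannitol mean was only 0.685 FPKM. A like share of that mean would lie below a floor of 3 fragments (0.247 FPKM), so this locus could not show such a signal.

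For 8 named genes the raf-b2/3 libraries lay wholly on 1 side of WT without mannitol and wholly on the other under mannitol; 322 of the 21114 tested loci did so, and 0 of the 129 called loci. The difference between the conditions was not tested here. The log2 genotype differences without and under mannitol were 0.31 and -0.37 for SAPK1, -0.11 and 0.07 for SAPK7, 0.58 and -2.68 for RAB16D, 0.16 and -0.43 for P5CS1, -0.29 and 0.20 for CIN1, 1.03 and -1.12 for LSI1, 0.34 and -0.37 for AKT1, and -0.15 and 0.53 for PORB. None of the 8 passed the adjusted p without mannitol by limma-trend.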

How the results depend on the processing

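All 129 called loci kept their sign under all 14 alternatives, and 0 were called in the opposite direction. On the 6 control libraries alone 54 loci were called higher, 33 lower, 168 passed the adjusted p and 4 list members passed it. Limma-voom on the recovered fragments called 114 higher and 53 lower, 118 of them among the 129. With the replicate block the counts were 84 higher, 41 lower and 338 past the adjusted p, and 5 list members passed. Equal replicate numbers did not deviate together (r of -0.25, 0.12 and 0.02), so the block pairs numbers only. Leaving out 1 library gave 59 to 100 loci higher, 34 to 46 lower, 194 to 423 past the adjusted p and 2 to 7 list members. The raf-b2/3-only loci rose from 14 to 24 with a limit of 0.5 FPKM. Leaving out 1 control library, the log2 difference of the marker sums was 0.23 to 1.32 for root, 0.08 to 0.22 for shoot and -0.02 to 0.08 for seed. With 3 libraries a group, single values cannot reach an exact p under 0.1.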
